A study of Mus musculus with 12 samples.

Results

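The genes of 10 secreted or membrane-anchored chemokines were followed in mouse pancreas at an early time of cerulein-induced pancreatitis. They are Ccl2, Ccl3, Ccl4, Ccl7, Cxcl1, Cxcl2, Cxcl5, Cxcl9, Cxcl10 and Cx3cl1. The list was set by symbol, with earlier results of these data known. They make up 10 of the 49585 genes counted, all 10 were found, and all 10 passed the filter on low counts. RNA from whole pancreas was sequenced in 12 libraries, 3 animals for each of 4 groups, from mice 2 to 4 months old. The first group was the congenic Atf3-/- line with 4 cerulein injections of 50 ug/kg each (libraries C2, C3 and L4), and the second was the C57Bl6 control, called wild type here, with the same injections (O1, O3 and N3). The third group was the Atf3-/- line with 4 saline injections (S1, K4 and Q1), and the fourth was the wild type with saline (W1, K5 and R3). Tissue was removed 4 h into treatment in all groups. Cerulein is a cholecystokinin analogue that makes acinar cells secrete and, in repeated high doses, damages them. The labels do not say which part of Atf3 is missing in the line, or in which cells.

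Chemokines are small proteins that draw leukocytes into tissue through G-protein-coupled receptors. Ccl2 and Ccl7 act on Ccr2 and recruit monocytes, and Ccl3 and Ccl4 draw macrophages and T cells. The ELR-type CXC chemokines Cxcl1, Cxcl2 and Cxcl5 act on Cxcr2 and recruit neutrophils, and the interferon-inducible Cxcl9 and Cxcl10 act on Cxcr3 on activated T and NK cells. Cx3cl1 (fractalkine) is made as a membrane-bound adhesion molecule, is shed by the proteases Adam10 and Adam17, and binds Cx3cr1. In pancreatitis, acinar cells and resident macrophages are known sources of Ccl2 and of the neutrophil-attracting members, whose transcription NF-kB drives.

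The 10 genes lie on 3 chromosomes (GRCm38, GENCODE annotation). Ccl2 (ENSMUSG00000035385, chromosome 11, 82035571 to 82037453, plus strand) and Ccl7 (ENSMUSG00000035373, chromosome 11, 82045712 to 82047525, plus strand) are 8258 bases apart. Ccl3 (ENSMUSG00000000982, chromosome 11, 83647844 to 83649355, minus strand) and Ccl4 (ENSMUSG00000018930, chromosome 11, 83662584 to 83664683, plus strand) are 13228 bases apart. Cxcl5 (ENSMUSG00000029371, 90759360 to 90761624), Cxcl1 (ENSMUSG00000029380, 90891241 to 90893115) and Cxcl2 (ENSMUSG00000058427, 90903871 to 90905938) are on the plus strand of chromosome 5. Cxcl9 (ENSMUSG00000029417, 92321347 to 92328079) and Cxcl10 (ENSMUSG00000034855, 92346638 to 92348889) are on its minus strand, 18558 bases apart. Cx3cl1 (ENSMUSG00000031778) is on chromosome 8 at 94772009 to 94782427, plus strand. Cxcl10 overlaps Art3 on the opposite strand, which had 9 to 144 counts per library, and since the strand setting of the counting is not given, some Cxcl10 counts could belong to Art3. Of the 50-base words of Cxcl2 transcripts, 5.84% also occur in Cxcl3, so reads from that stretch cannot be told apart.

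The promoters of Cxcl1, Cxcl2 and Cxcl10 are shown because each holds a kB-like element, the type of site that NF-kB binds, in genes whose levels are set side by side in the results. The RefSeq promoter table (GRCm38.p6) holds 6 of the 10 members, and the 250 bases before each start were searched on both strands for 4 motifs. These were kB-like GGAANTTCC, found in 0.813% of the 32851 promoters of the table, AP-1 TGANTCA (6.75%), CRE TGACGTCA (1.55%) and IRF-like AAANNGAAA (9.37%). In the lines below capitals mark the matches, and each sequence reads 5′ to 3′ on the gene's strand.
Cxcl1 (chr5:90891095-90891216, plus strand): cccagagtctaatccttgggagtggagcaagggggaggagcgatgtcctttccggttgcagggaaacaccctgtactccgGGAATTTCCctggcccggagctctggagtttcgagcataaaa
Cxcl2 (chr5:90903749-90903870, plus strand): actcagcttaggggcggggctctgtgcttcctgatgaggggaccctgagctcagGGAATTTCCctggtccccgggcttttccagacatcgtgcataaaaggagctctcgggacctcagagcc
Cxcl10 (chr5:92348918-92349119, minus strand): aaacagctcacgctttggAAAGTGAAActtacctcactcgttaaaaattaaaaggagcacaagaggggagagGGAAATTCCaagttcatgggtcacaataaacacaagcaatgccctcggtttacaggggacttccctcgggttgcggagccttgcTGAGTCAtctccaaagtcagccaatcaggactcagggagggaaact
Counted from the RefSeq start, the kB-like match lies at -70 to -62 in Cxcl1, at -96 to -88 in Cxcl2 and at -158 to -150 in Cxcl10. The longest stretch that the Cxcl1 and Cxcl2 windows share, gggaatttccctgg, has 14 bases and spans that match. Cxcl10 alone of the 6 also holds an AP-1 match (-74 to -68) and an IRF-like match (-212 to -204). None of the 4 motifs was found in the windows of Ccl3, Cxcl9 and Cx3cl1. The kB-like search used 1 fixed pattern, so other forms of kB site were not searched for in any of the 6 windows. RefSeq and GENCODE starts can differ. The Cx3cl1 window (94771930 to 94772179) runs into the GENCODE gene, which starts at 94772009, so less sequence before that start was searched. The full Cxcl2 window also runs past its GENCODE start, to 90903898. A match is a run of letters and not a measured binding site.

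The libraries held 18292997 to 32158629 counts, and levels are given as CPM, counts scaled to 1e+06 per library on library sizes adjusted by TMM. Apart from library C3, Atf3 was not lower where the label says knockout. With cerulein it stood at 1375 (C2), 20.7 (C3) and 1636 CPM (L4) against 775, 599 and 394 CPM in the wild type. With saline it stood at 23.1, 7.44 and 13.5 CPM under the knockout label against 3.23, 1.13 and 5.28 CPM in the wild type. The Atf3-/- groups are therefore called labelled knockout, and every direction between the labels rests on them. C3 had Atf3 near the saline level, and 9 of the 10 members in C3 lay inside the range of the 6 saline libraries. That range is wide, from 1.91-fold (Cx3cl1) to 146-fold (Cxcl5) between its ends. C2 and L4 also lay inside it for Ccl3, Cxcl1, Cxcl2, Cxcl5 and Cxcl10, so the members alone separate C3 weakly. Results are given with and without C3. N3 held the most neutrophil markers (136.9 summed CPM), macrophage and monocyte markers (482 CPM) and lymphocyte markers (566 CPM) of all 12 libraries. All 9 acinar markers were counted in every library, at 287975 to 575787 summed CPM. The acinar sum was 298958 to 466806 CPM in labelled knockout cerulein against 389437 to 575787 CPM in labelled knockout saline, which overlap, and 287975 to 362958 CPM in wild-type cerulein against 427303 to 501857 CPM in wild-type saline, which do not.

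In wild-type pancreas the monocyte chemokine Ccl2 rose with cerulein about 7.28-fold, and it was the only one of the 10 to pass edgeR's test. All 10 members had a higher mean in wild-type cerulein than in wild-type saline. For Ccl2, Ccl3, Ccl4 and Ccl7, the 4 CC members, every cerulein library lay above every saline library. Such separation was seen in 27.5% of all genes tested. Of all 14329 genes, 30.7% passed the test in either direction and 17.9% passed as higher, so a count of 1 in 10 is below the background share. The median log2 fold change of the 10 members was 1.95, beside 0.05 over all genes.

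**Figure D1:**
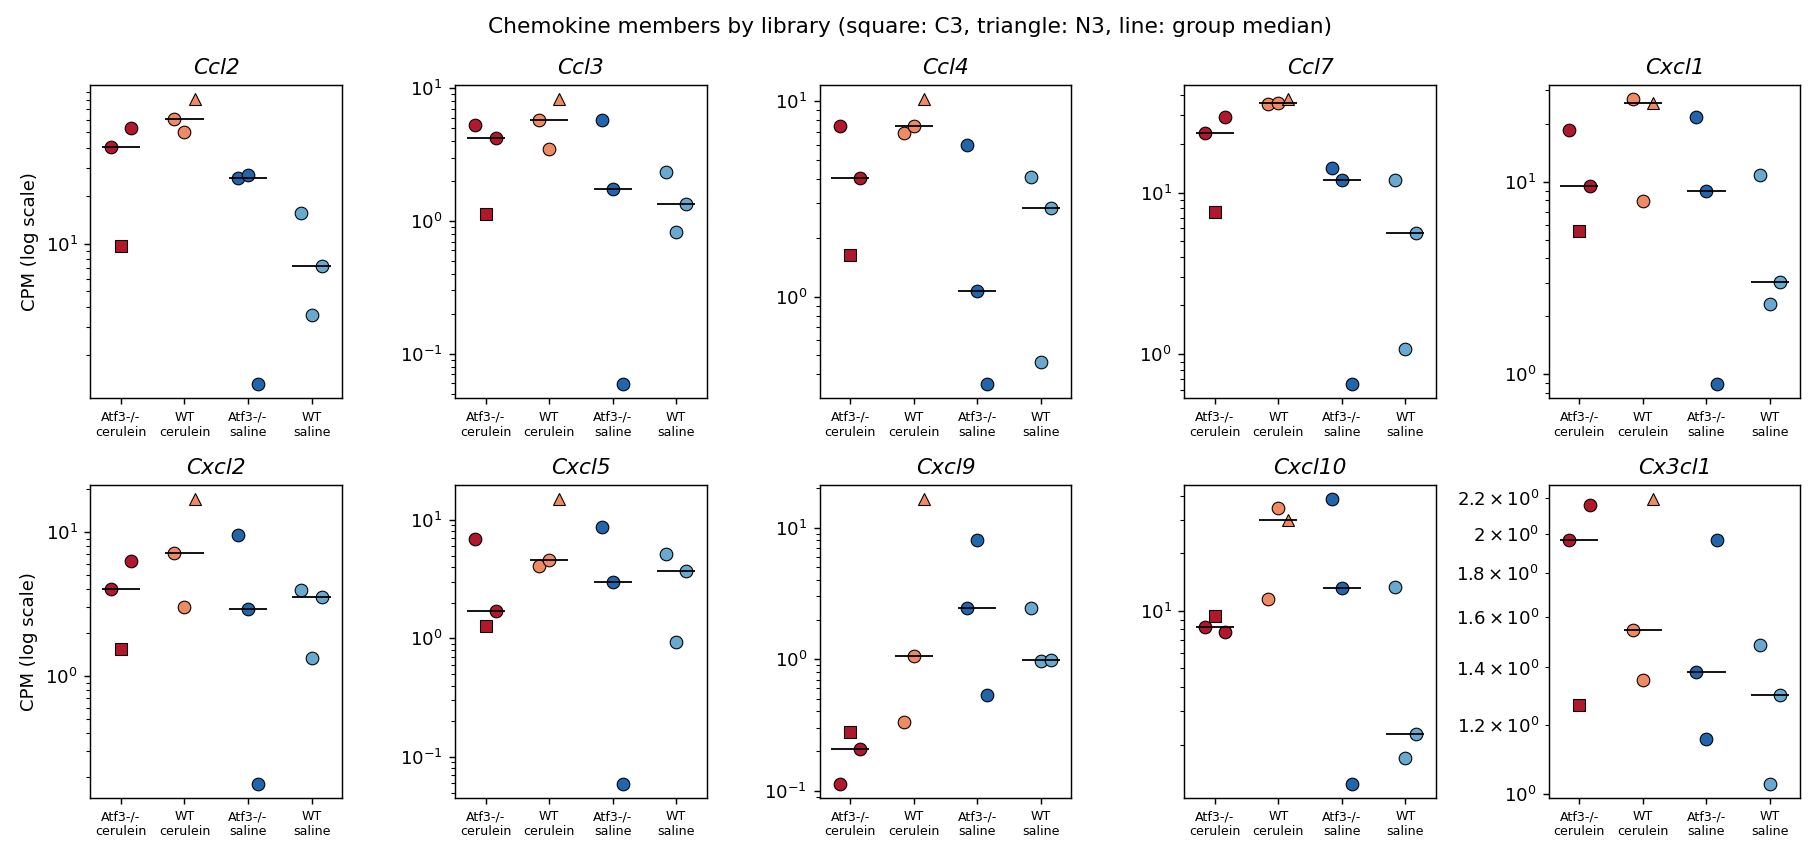
CPM (log scale, with its own range in each panel) of each chemokine in the 12 libraries, 3 points per group, with the group median as a line; groups run from labelled knockout cerulein (left) to wild-type saline (right). Squares mark C3 and triangles N3; C3 is below C2 and L4 for 8 members and N3 is the highest wild-type cerulein library for 8.

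Ccl2, the main Ccr2 ligand, stood at 60.4 (O1), 50.1 (O3) and 80.9 CPM (N3) in wild-type cerulein, against 15.7 (W1), 3.54 (K5) and 7.25 CPM (R3) in wild-type saline. Its log2 fold change was 2.86 ± 0.94 (SE, n = 3 per group; edgeR's quasi-likelihood test, Benjamini-Hochberg adjusted p = 0.0400). The groups did not overlap, but the call is near the threshold. With 1 library left out at a time edgeR's adjusted p ran from 0.0165 to 0.127, and the call was lost in 8 of 12 cases. Without W1, K5 or R3 the adjusted p was 0.0544, 0.127 and 0.120, and without O1, O3 or N3 it was 0.0773, 0.0737 and 0.0773. Without S1 or C2, which are in neither wild-type group and enter by the shared spread, it was 0.0522 and 0.0513. The number of members called was 2 without C3 (Ccl2 and Ccl7, where 37.9% of all genes were called), 3 without Q1 (Ccl2, Ccl7 and Ccl3, where 26.8% of all genes were called) and 1 without W1 (Cxcl10, where 17.4% were called).

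Ccl7, which also signals through Ccr2, was the steadiest member in wild-type cerulein, at 35.3, 35.7 and 37.8 CPM, against 11.9, 1.08 and 5.59 CPM in wild-type saline. Its log2 fold change of 2.56 ± 0.94 missed the threshold by edgeR (adjusted p = 0.0596). Leaving C3 out gave 2.57 ± 0.91 and edgeR's adjusted p = 0.0495. By limma-voom, where 28% of all genes were called, both Ccl7 (adjusted p = 0.0421) and Ccl2 (adjusted p = 0.0489) passed. DESeq2 called 35% of all genes and 3 members, Ccl2 (adjusted p = 0.00274), Ccl7 (adjusted p = 0.0112) and Cxcl10 (adjusted p = 0.0479).

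Neither monocyte chemokine passed in the labelled knockout, where edgeR called 0% of all genes. Ccl2 stood at 40.3 (C2), 9.61 (C3) and 53.3 CPM (L4) with cerulein, against 25.7 (S1), 26.9 (K4) and 1.31 CPM (Q1) with saline. C2 and L4 were above every saline library of either label, and C3 was below S1 and K4. The log2 fold change was 0.93 ± 0.88 (adjusted p = 0.517 by edgeR). Leaving C3 out, where edgeR called 29.2% of all genes, gave 1.37 ± 0.88 (adjusted p = 0.277 by edgeR). Ccl7 had 23.3, 7.55 and 29.4 CPM in labelled knockout cerulein against 14.1, 11.9 and 0.655 CPM in labelled knockout saline. Its change was 1.17 ± 0.89, and 1.55 ± 0.94 without C3.

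The receptor of both ligands, Ccr2, stood at 13.4, 2.20 and 11.7 CPM in labelled knockout cerulein, 16.5, 15.7 and 30.3 CPM in wild-type cerulein, 5.48, 19.6 and 2.74 CPM in labelled knockout saline, and 3.88, 2.77 and 5.91 CPM in wild-type saline. It rose in the wild type by a log2 fold change of 2.31 ± 0.76 (adjusted p = 0.0409 by edgeR), a call that limma-voom did not make. The 10 macrophage and monocyte markers summed to 202 (O1), 158 (O3) and 482 CPM (N3) in wild-type cerulein, against 122 to 201 CPM in wild-type saline. These ranges overlap, and none of the 10 passed. Of the N3 sum, 332 CPM came from Lyz2. In the labelled knockout the markers summed to 78.4 to 218 CPM with cerulein, against 98.5 to 409 CPM with saline, which also overlap. All 10 were counted in every library. Of the 9 acinar markers 2 fell in the wild type, beside 30.7% of all genes called in either direction and 1831 of 14329 called lower. The 2 were Bhlha15 (-1.65 ± 0.41, adjusted p = 0.0147 by edgeR), an acinar transcription factor, and Cpa1 (-0.64 ± 0.21, adjusted p = 0.0429 by edgeR), a digestive enzyme. The acinar sum did not overlap between the wild-type groups, as given above. The part of these cell types in the Ccl2 result was not tested, and in whole tissue more cells of a type and more RNA per cell cannot be told apart.

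The macrophage inflammatory proteins Ccl3 and Ccl4 were less abundant. Ccl3 stood at 5.71, 3.49 and 8.25 CPM in wild-type cerulein, against 2.33, 0.822 and 1.34 CPM in wild-type saline, a log2 fold change of 1.97 ± 0.96 (adjusted p = 0.139 by edgeR). Ccl4 stood at 6.93, 7.50 and 10.3 CPM, against 4.07, 0.462 and 2.84 CPM, a change of 1.75 ± 0.92 (adjusted p = 0.168). The cerulein and saline libraries of the wild type did not overlap for either gene, yet neither passed.

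Cerulein and saline libraries of the labelled knockout did overlap for both. Ccl3 had 5.29, 1.13 and 4.24 CPM with cerulein, against 5.78, 1.74 and 0.0596 CPM with saline, where the last value is a single count in Q1. Ccl4 had 7.44, 1.64 and 4.06 CPM with cerulein, against 5.99, 1.07 and 0.357 CPM with saline. S1 was the highest saline library for both and reached the cerulein levels. Changes were 0.48 ± 0.91 for Ccl3 and 0.81 ± 0.90 for Ccl4, and neither passed, as for 0% of all genes by edgeR.

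For the neutrophil chemokines Cxcl1, Cxcl2 and Cxcl5 the cerulein and saline libraries overlapped in both labels, and none passed. By edgeR 30.7% of all genes passed in the wild type and 0% in the labelled knockout. Cxcl1 stood at 26.9 (O1), 7.99 (O3) and 25.7 CPM (N3) in wild-type cerulein, against 10.8 (W1), 2.31 (K5) and 3.03 CPM (R3) in wild-type saline. O3 lay below W1, so the groups overlapped, and the log2 fold change of 1.93 ± 0.94 did not pass (adjusted p = 0.140 by edgeR). Cxcl2 stood at 7.18, 3.0 and 17.0 CPM with cerulein, against 3.95, 1.34 and 3.54 CPM with saline (1.63 ± 0.99, adjusted p = 0.233). For Cxcl5 the values were 4.09, 4.60 and 15.0 CPM with cerulein, against 5.11, 0.925 and 3.70 CPM with saline (1.29 ± 1.09, adjusted p = 0.395). The high values of Cxcl2 and Cxcl5 were both in N3, and without N3 the changes were 0.80 ± 1.04 for Cxcl2 and 0.43 ± 1.18 for Cxcl5.

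The same 3 genes had labelled knockout estimates of 0.08 ± 0.90 (Cxcl1), -0.10 ± 0.96 (Cxcl2) and -0.26 ± 1.08 (Cxcl5) on the log2 scale. Cxcl1 stood at 18.6 (C2), 5.58 (C3) and 9.48 CPM (L4) with cerulein, against 21.8 (S1), 9.0 (K4) and 0.894 CPM (Q1) with saline. Cxcl2 had 4.04, 1.55 and 6.27 CPM, against 9.59, 2.94 and 0.179 CPM, and Cxcl5 had 6.91, 1.27 and 1.72 CPM, against 8.71, 2.98 and 0.0596 CPM. The saline library S1 held the highest value of the 6 labelled knockout libraries for all 3 genes, and the saline library Q1 the lowest. Q1 had 15, 3 and 1 counts of Cxcl1, Cxcl2 and Cxcl5, so its levels are imprecise. The 7 neutrophil markers summed to 5.63 to 51.0 CPM in labelled knockout cerulein, 18.6 to 136.9 CPM in wild-type cerulein, 3.63 to 97.4 CPM in labelled knockout saline and 9.86 to 32.7 CPM in wild-type saline. Q1 held the least and N3 the most, and Ly6g, Ngp or both were at 0 in W1, K5, K4, Q1, C3 and L4. Cxcr2, the receptor on neutrophils, stood at 0.119 CPM in Q1, 8.28 CPM in K4 and 12.2 CPM in N3. Their part in these results was not tested.

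**Figure D2:**
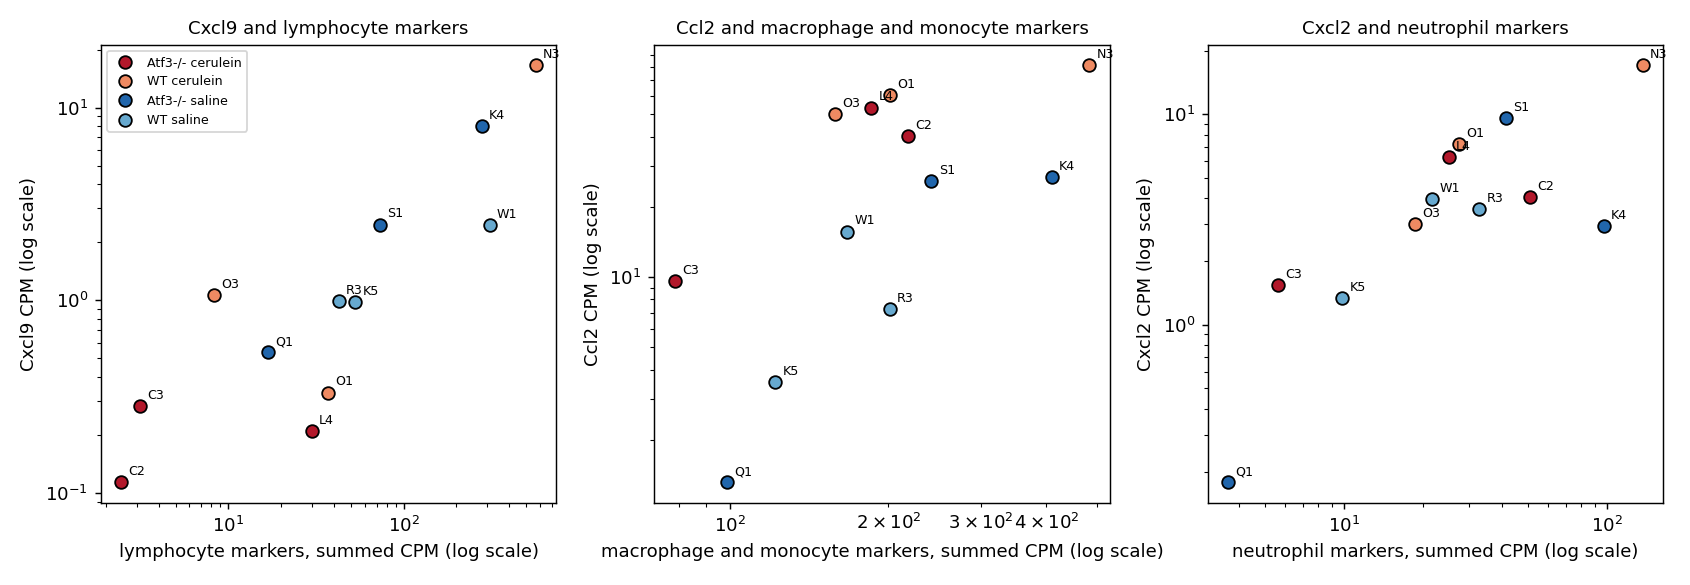
Cxcl9, Ccl2 and Cxcl2 (CPM, log scale) against the summed CPM (log scale) of the lymphocyte, macrophage and monocyte, and neutrophil markers; each point is a library, coloured by group. Cxcl9 and the lymphocyte sum are both highest in N3 and lowest in C2, and Cxcl2 and the neutrophil sum are both highest in N3 and lowest in Q1. Most of the lymphocyte sum is from the B-cell immunoglobulin genes Ighm and Igkc. Ccl2 and the macrophage and monocyte sum are both highest in N3, but Ccl2 is lowest in Q1 and the sum in C3.

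Cxcl9 and Cxcl10, the Cxcr3 ligands, had mean levels that were lower with cerulein than with saline in the labelled knockout and higher in the wild type. The wild-type direction of Cxcl9 rested on N3, and the labelled knockout direction of Cxcl10 on S1. Cxcl9 stood at 0.113 (C2), 0.281 (C3) and 0.208 CPM (L4) in labelled knockout cerulein, against 2.47 (S1), 8.02 (K4) and 0.536 CPM (Q1) in labelled knockout saline. All 3 cerulein libraries lay below all 3 saline libraries, as for 6.35% of all genes. The log2 fold change was -4.18 ± 1.44, with an unadjusted p of 0.0146 by edgeR, and it did not pass after adjustment (adjusted p = 0.128). Without C3 edgeR called 29.2% of all genes in this comparison but not Cxcl9 (-4.43 ± 1.85, adjusted p = 0.103).

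Cxcl9 passed in the labelled knockout under 3 other settings. DESeq2, which called 10.8% of all genes, gave -4.19 (adjusted p = 0.00698). Without both C3 and N3 edgeR called 32.1% of all genes and gave Cxcl9 -4.44 ± 1.19 (adjusted p = 0.0200). With K4 left out as well, a setting chosen after seeing the data, 29.7% were called and it was -3.21 ± 0.91 (adjusted p = 0.0267). Both of these edgeR settings also leave out N3, a wild-type library that enters by the shared spread. With 1 library left out at a time Cxcl9 never passed by edgeR (adjusted p = 0.0934 to 0.377). Without K4 alone its log2 fold change was -2.94. Its levels are low all the same, with 3 counts in C2.

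In the wild type Cxcl9 stood at 0.332 (O1), 1.06 (O3) and 16.5 CPM (N3) with cerulein, against 2.46 (W1), 0.976 (K5) and 0.985 CPM (R3) with saline. The log2 fold change of 2.04 ± 1.23 (adjusted p = 0.228 by edgeR) was set by N3, and without N3 it was -1.08 ± 0.97. The 10 lymphocyte markers summed to 2.45 (C2), 3.14 (C3) and 29.9 CPM (L4) in labelled knockout cerulein and to 37.2, 8.33 and 566 CPM in wild-type cerulein. In saline they summed to 73.5, 279 and 16.8 CPM in the labelled knockout and to 309, 53.0 and 42.7 CPM in the wild type. Most of each sum came from the B-cell immunoglobulin genes Ighm and Igkc, at 325 and 193 CPM in N3. The T-cell markers Cd3e, Cd3g, Cd4 and Cd8a were at or below 1.77 CPM in every library. Cd8a was at 0 in C2, Cd3e in C3 and in Q1, and Cd79a and Cd79b in O3. N3 and K4, the libraries with most Cxcl9, were also those with most adipocyte markers, at 394 and 482 summed CPM over 6 markers beside 29.5 to 145 CPM in the other 10 libraries. Plin1, Cidec and Lep were at 0 in O3 and C2, Adipoq, Plin1 and Lep in Q1, and Lep in C3. The part of lymphocytes or fat in the Cxcl9 result was not tested. Cxcr3 was at or below 0.920 CPM in every library.

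Cxcl10 varied least of the members, relative to its mean, in labelled knockout cerulein, at 8.20 (C2), 9.43 (C3) and 7.73 CPM (L4), against 38.5 (S1), 13.2 (K4) and 1.25 CPM (Q1) in labelled knockout saline. These 3 values, C3 among them, lay inside the saline range, and the log2 fold change was -1.07 ± 0.96. Without S1 the log2 fold change was 0.22. In wild-type cerulein Cxcl10 stood at 11.6 (O1), 34.5 (O3) and 29.8 CPM (N3), against 13.3 (W1), 1.70 (K5) and 2.28 CPM (R3) in wild-type saline, a change of 2.16 ± 1.0 (adjusted p = 0.124 by edgeR). O1 lay below W1, and without W1 the change was 3.66 and passed (adjusted p = 0.0475).

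Cx3cl1 differed from the rest in how little it varied. It stood at 1.96, 1.27 and 2.16 CPM in labelled knockout cerulein, 1.55, 1.36 and 2.19 CPM in wild-type cerulein, 1.38, 1.16 and 1.97 CPM in labelled knockout saline, and 1.49, 1.03 and 1.30 CPM in wild-type saline. Its log2 fold changes were 0.27 ± 0.32 in the labelled knockout and 0.42 ± 0.33 in the wild type, neither of which passed edgeR's test (adjusted p = 0.353 in the wild type). The standard errors were smaller than those of the 9 others, 0.88 or more in both comparisons. The sheddases Adam10 (0.57 ± 0.24, adjusted p = 0.0917) and Adam17 (0.19 ± 0.32) did not pass in the wild type, nor did they in the labelled knockout. Cx3cr1 ran from 0.238 CPM in Q1 to 1.08 CPM in C3.

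**Figure D3:**
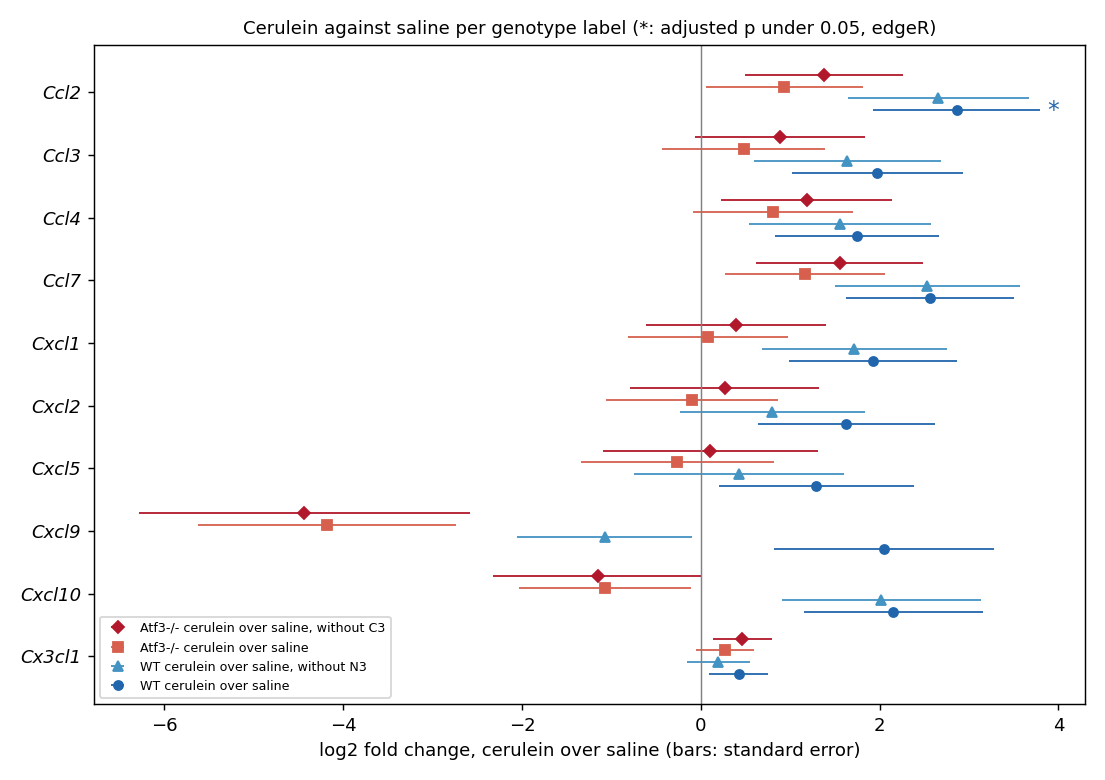
Log2 fold change, cerulein over saline, with standard errors as bars, for each chemokine in the labelled knockout (with and without C3) and the wild type (with and without N3), from edgeR; an asterisk marks an adjusted p under 0.05. Ccl2 in the wild type is the one marked value, and Cxcl9 in the wild type changes sign without N3, at 2.04 with it and -1.08 without.

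Per exon length, so that levels of different genes can be compared, the 2 monocyte chemokines led. In wild-type cerulein Ccl2 stood at 56.1 ± 13.8 and Ccl7 at 45.3 ± 1.68 CPM per kb of exons (SD, n = 3), and their libraries overlapped. The next, Ccl4, stood at 12.5 ± 2.70 CPM per kb, and between Ccl7 and Ccl4 the libraries did not overlap. From there Cxcl10 (11.2 ± 5.38), Cxcl1 (10.8 ± 5.63), Ccl3 (7.59 ± 3.11), Cxcl2 (4.39 ± 3.48), Cxcl5 (4.25 ± 3.32), Cxcl9 (1.98 ± 3.03) and Cx3cl1 (0.432 ± 0.112 CPM per kb) followed, each overlapping its neighbour. In labelled knockout cerulein Ccl2 (30.2 ± 19.7 CPM per kb) and Ccl7 (25.1 ± 14.1 CPM per kb) led as well, and Cxcl9 was last at 0.0666 ± 0.0279 CPM per kb, below Cx3cl1 at 0.457 ± 0.120. With saline Ccl2 and Ccl7 again had the highest means, at 15.8 ± 12.7 and 11.1 ± 9.03 CPM per kb in the labelled knockout and at 7.75 ± 5.45 and 7.73 ± 6.79 CPM per kb in the wild type, and neither led the other beyond its spread.

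**Figure D4:**
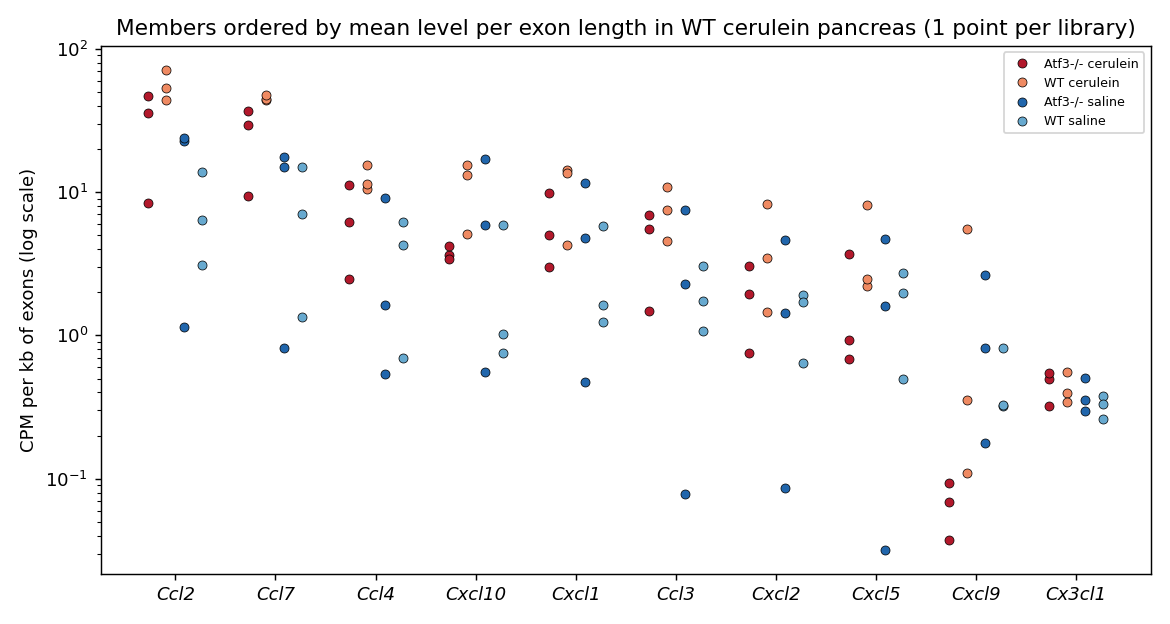
CPM per kb of exons (log scale) of the 10 chemokines, 1 point per library, coloured by group and ordered by the mean in wild-type cerulein. Ccl2 and Ccl7 lead at means of 56.1 and 45.3 in wild-type cerulein, and Cx3cl1 has the narrowest spread.

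The labels were then compared within each treatment, where the question is whether chemokine levels depend on the Atf3-/- label. With cerulein no member passed edgeR's test, as for 0% of all genes (1146 had an unadjusted p under 0.05, and DESeq2 called 11 genes and limma-voom 0). Ccl7, Cxcl9 and Cxcl10 were lower in every labelled knockout library than in every wild-type library, 3 of 10 members beside 4.29% of all genes. For Ccl7 that was 23.3, 7.55 and 29.4 CPM in labelled knockout cerulein against 35.3, 35.7 and 37.8 CPM in wild-type cerulein, a log2 fold change of -0.85 ± 0.88 (-0.46 ± 0.94 without C3). For Cxcl10 it was -1.58 ± 0.97 (-1.66 ± 1.19 without C3), from 7.73 to 9.43 CPM in the labelled knockout against 11.6 to 34.5 CPM in the wild type.

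Cxcl9 had the widest difference between the labels with cerulein, at -4.88 ± 1.46 on the log2 scale (unadjusted p = 0.00665, adjusted p = 0.604 by edgeR). By DESeq2 it was -4.90 and passed (adjusted p = 0.0303), 1 of the 0.077% of genes that DESeq2 called. Without N3, the library with 16.5 CPM, it was -1.76 ± 1.05 and kept its sign. Over the 10 members the median difference was -0.90 (0.01 over all genes), -0.52 without C3, -0.66 without N3 and -0.28 without both.

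With saline no member passed between the labels, as for 0% of all genes (60 had an unadjusted p under 0.05, and DESeq2 and limma-voom called 0). All 10 log2 fold changes were above 0, from 0.04 ± 0.91 (Ccl4) to 1.64 ± 0.99 (Cxcl10), with a median of 0.67 beside 0.01 over all genes. That median rested on single libraries: it was -0.02 without S1, with 5 of 10 above 0, 0.34 without K5, 1.32 without W1 and 1.22 without Q1. By limma-voom Ccl3, Ccl4, Cxcl2 and Cxcl5 were below 0. The labelled knockout saline libraries spanned the wild-type ones: Q1 was the lowest of the 6 saline libraries for 9 members and S1 the highest for 7. Ccl2 and Cxcl10 in S1, at 25.7 and 38.5 CPM, were above all wild-type saline libraries, and Cxcl10 in S1 was the highest value of all 12 libraries.

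The test of the difference of the 2 cerulein responses, labelled knockout minus wild type, called no member and 0% of all genes (594 had an unadjusted p under 0.05, DESeq2 called 1 gene, not a member, and limma-voom 0). All 10 estimates were below 0, with a median of -1.64 beside 0.01 over all genes. It was -0.53 without S1 and -0.88 without C3 and N3, with 9 of 10 below 0 in each case. These estimates share the 12 libraries and are not independent of each other. Cxcl9 (-6.23 ± 1.90, unadjusted p = 0.00737) and Cxcl10 (-3.22 ± 1.39, unadjusted p = 0.0407) were the only members under 0.05 before edgeR's adjustment (adjusted p = 0.812 for both). Without N3 they were -3.11 ± 1.32 and -3.09 ± 1.5, and without C3 -6.48 ± 2.27 and -3.32 ± 1.59. For Ccl2 the difference was -1.93 ± 1.25, so the wild-type call and the missing call in the labelled knockout are not shown to differ. Between labelled knockout cerulein and saline, 0% of all genes passed edgeR's test (3256 had an unadjusted p under 0.05, DESeq2 called 1359 genes and limma-voom 0), so the count of 0 members there equals the background.

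**Figure D5:**
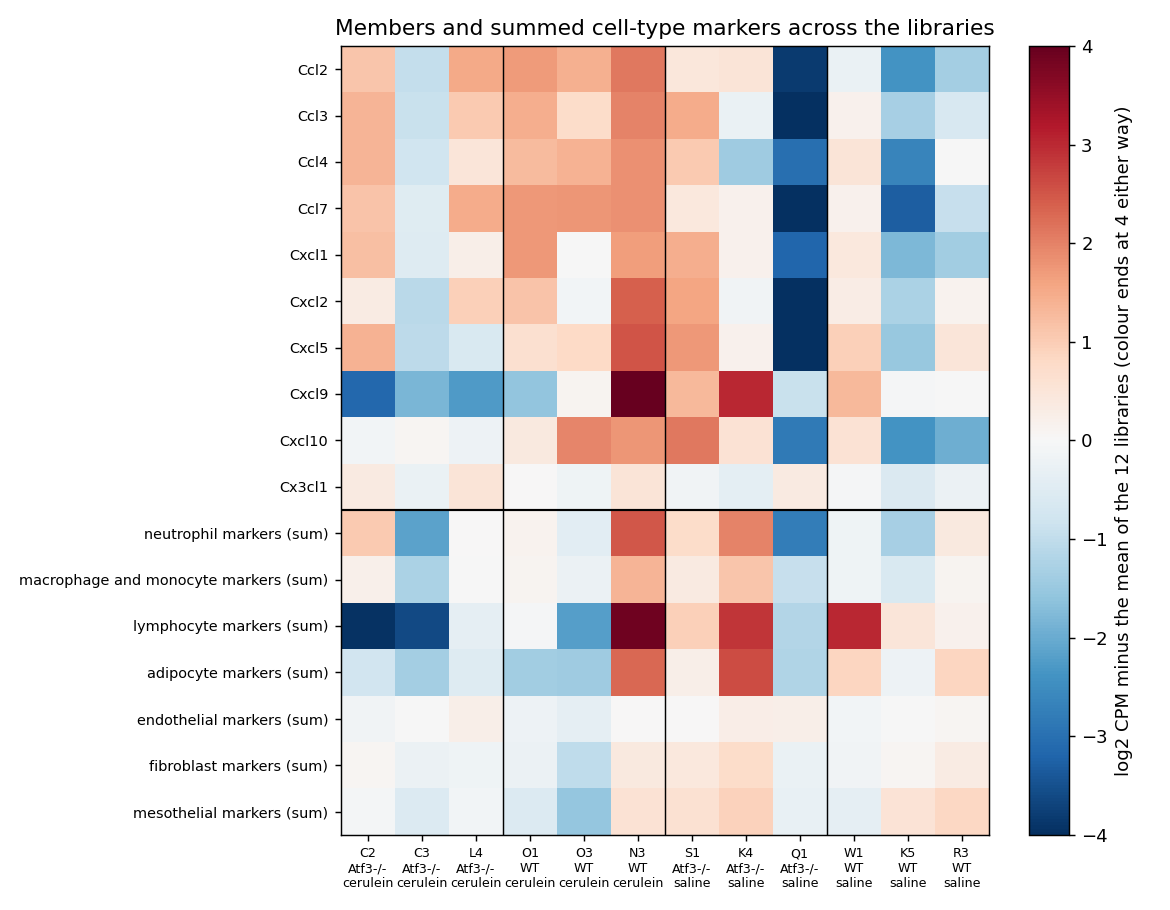
Log2 CPM of each chemokine (top) and of summed cell-type markers (bottom), as the difference from the mean of the 12 libraries, with colours ending at 4 in either direction; libraries run from labelled knockout cerulein (left) to wild-type saline (right). Q1 is low for 9 members, N3 is high for most members and for the leukocyte and adipocyte markers, and Cx3cl1 is near its mean throughout.

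Other genes of the pathway were counted from lists taken from general knowledge, also with earlier results of these data known. Of 28 other chemokine ligands, 18 were tested in the wild type and 2 passed by edgeR, beside 30.7% of all genes. Cxcl14, a chemokine of epithelial tissues, rose by 2.06 ± 0.50 on the log2 scale (adjusted p = 0.0141 by edgeR), at 14.4, 19.5 and 11.9 CPM in wild-type cerulein against 5.82, 1.95 and 3.23 CPM in wild-type saline. Ccl25, a thymus and gut chemokine, fell by 0.87 ± 0.26 (adjusted p = 0.0275 by edgeR). The list's median was 0.74 (0.05 over all genes), and 0.06 without C3 and N3, with N3 a wild-type library. For the labelled knockout 0 of 18 passed by edgeR, as for 0% of all genes (5 had an unadjusted p under 0.05, and DESeq2 called 1, Cxcl13, a B-cell chemokine). There the 2 most abundant, Cxcl13 and Ccl9, changed by -3.68 ± 1.41 and -0.03 ± 0.58. Without C3, Cxcl14 (1.62 ± 0.47, adjusted p = 0.0272) and Ccl28 (2.47 ± 0.63, adjusted p = 0.0135), a mucosal chemokine, passed as higher, beside 29.2% of all genes called.

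Among 23 chemokine receptors, 13 were tested, and in the wild type edgeR called 1, Ccr2, beside 30.7% of all genes. DESeq2 called 3 (Ackr3, Ccr1 and Ccr2), limma-voom called 0, and edgeR without C3 and N3 called 0 of 14, beside 38% of all genes. The list's median was 0.85, and 0.05 without C3 and N3. None passed in the labelled knockout, as for 0% of all genes by edgeR (2 had an unadjusted p under 0.05, and DESeq2 called 0). Ccr2 was at -0.03 ± 0.72 there and Ackr3, a scavenging receptor, at 0.23 ± 0.36. Of 16 cytokine and NF-kB genes 4 rose in the wild type by edgeR, beside 30.7% of all genes called, namely Rela (1.40 ± 0.36, adjusted p = 0.0162) and Nfkb1 (1.0 ± 0.31, adjusted p = 0.0351), which encode NF-kB subunits, Rel (2.21 ± 0.62, adjusted p = 0.0229), another subunit, and Sele (3.31 ± 1.07, adjusted p = 0.0389), the endothelial adhesion molecule E-selectin. The list's median was 1.38, and 0.76 without C3 and N3. Without C3 the wild-type count was 7, beside 37.9% of all genes, and without C3 and N3 it was 3 (Sele, Rel and Rela), beside 38%. Of the 16, 0 passed in the labelled knockout by edgeR, as for 0% of all genes (2 had an unadjusted p under 0.05, and DESeq2 called 1, Rela). Rela was at 1.28 ± 0.36 there (adjusted p = 0.0881 by edgeR) and Nfkbia, the inhibitor of NF-kB, at -0.28 ± 0.38. Without C3, Rela (1.58 ± 0.29) and Sele (3.23 ± 0.82) rose, beside 29.2% of all genes called.

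Of 12 interferon-response genes 10 were tested and none passed by edgeR, DESeq2 or limma-voom in either label (3 in the labelled knockout and 1 in the wild type had an unadjusted p under 0.05). Of all genes, edgeR called 30.7%, DESeq2 35% and limma-voom 28% in the wild type. In the labelled knockout edgeR called 0%, DESeq2 10.8% and limma-voom 0 genes. The list's median change was -1.01 in the labelled knockout and 0.47 in the wild type, beside 0.00 and 0.05 over all genes. The most abundant, the guanylate-binding protein Gbp2, stood at 24.2, 26.0 and 20.1 CPM in labelled knockout cerulein and at 79.6, 70.6 and 20.7 CPM in labelled knockout saline (-1.28 ± 0.57, adjusted p = 0.214 by edgeR). Its wild-type change was 0.09 ± 0.56. Stat2, which carries the type I interferon signal, changed by -0.28 ± 0.33 in the labelled knockout and 0.07 ± 0.33 in the wild type. Without C3 the related gene Gbp4 passed as lower in the labelled knockout (-1.68 ± 0.54, adjusted p = 0.0410), beside 29.2% of all genes called. Between the labels and for the difference of responses, no gene of these lists passed by edgeR, DESeq2 or limma-voom. The log2 fold changes of the 2 most abundant genes of each list over all 5 comparisons were -4.48 to 1.2 for Cxcl13, -1.08 to 1.04 for Ccl9, -2.34 to 2.31 for Ccr2, -0.72 to 0.95 for Ackr3, -0.26 to 1.40 for Rela, -1.20 to 0.93 for Nfkbia, -1.38 to 0.45 for Gbp2 and -0.35 to 0.16 for Stat2.

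The genes whose levels followed each member most closely across the 12 libraries were found by Pearson's r of log2 CPM, given as a description without a p, since the libraries share treatment, depth and tissue mixture. For Ccl2 they were Neurl3 (r = 0.982) and Ccl7 (r = 0.980), and for Ccl7 Ch25h (r = 0.982) and Ccl2. Ccl3 was closest to Cxcl2 (r = 0.954) and Rnd1 (r = 0.953), Ccl4 to Snapc1 (r = 0.951) and Tnfaip6 (r = 0.950), and Cxcl1 to Rnd1 (r = 0.956) and Tnf (r = 0.953). Cxcl2 had Ccl3 and Tnfaip3 (r = 0.942), and Cxcl5 had Batf (r = 0.946) and Rnd1 (r = 0.941). Cxcl9 stood with Psmb9 (r = 0.975) and Gimap3 (r = 0.972), whereas Cxcl10 stood with Ifit1 (r = 0.962) and Mx1 (r = 0.947). Cx3cl1 had weaker matches, Ak5 (r = 0.862) and E2f7 (r = 0.839).

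Between members, the 36 pairs without Cx3cl1 had r from 0.08 to 0.98 (median 0.843), and the 9 pairs with it had r from -0.13 to 0.40 (median 0.222). The low end of the 36 was Cxcl9, from 0.08 with Ccl4 to 0.413 with Cxcl10. Pairs with neither Cxcl9 nor Cx3cl1 had r of 0.728 or more. Without C3 and N3 the Cxcl9 pairs among the 36 ran from -0.25 to 0.302, and the 9 with Cx3cl1 from -0.70 to 0.26 (median 0.036). Among genomic neighbours, Ccl2 and Ccl7 had r = 0.980, Ccl3 and Ccl4 0.905, and Cxcl1 and Cxcl2 0.893, whereas Cxcl9 and Cxcl10 had 0.413. Without C3 and N3 these were 0.983, 0.889, 0.885 and 0.302 over 10 libraries.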

How the data were processed

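The deposited values are whole-number read counts per Ensembl gene, 1 table per library, from a stranded total RNA kit per the labels. HTSeq, DESeq2 and the mm10 build come from the submitters' processing notes. Which aligner, gene annotation and strandedness option were used is not given in the sources used here. Per the series' design the 3 libraries of a group are separate animals. Of 49585 genes, 49326 were matched by identifier to GENCODE M21 (GRCm38). R 4.3.3, edgeR 4.0.16, limma 3.58.1, DESeq2 1.42.0 and Python 3.11.15 were used. Genes kept by filterByExpr (14329) entered 1 robust quasi-likelihood fit of the 12 libraries after TMM scaling, with two-sided tests, Benjamini-Hochberg adjustment over all genes and significance at 0.05. Standard errors were derived from each estimate and its F statistic. The fit was tested on simulated data. Likeness used log2 CPM with a prior count of 2. The members and lists were chosen with earlier results of these data known. Named genes were the 10 members, up to 4 passing genes of each pathway list (smallest adjusted p first) or its 2 most abundant, and the 2 most alike genes of each member. Alternatives were other tools, scalings and filters and leaving out libraries. Of the chemokine receptors 1 is not reported here, but it stays in the tests and counts.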

Additional observations from a re-analysis of the deposited data

How the results depend on the processing

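For wild-type cerulein against saline, 1 member passed by edgeR, 3 by DESeq2, 2 by limma-voom, 0 with no filter on low counts, 0 without C3 and N3 and 0 without C3, N3 and K4 (the last chosen after seeing the data), and 0 to 3 with 1 library left out. In the labelled knockout 0 members passed, against 1 (Cxcl9) by DESeq2, 1 without C3 and N3 and 1 without C3, N3 and K4. Between the labels with cerulein it was 0, against 1 (Cxcl9) by DESeq2. The other counts did not change.

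Some estimates changed sign, none of them past the threshold. Without C3 and N3, and without K4 as well, Ccl3 (0.0457 and 0.0343) and Cxcl2 (0.0147 and 0.0047) were above 0 between the labels with cerulein, and Cx3cl1 was above 0 for the difference of responses (0.27 and 0.10). Cxcl9 in the wild type was -1.08 without C3 and N3 and -1.11 without K4 as well. In the labelled knockout Cxcl2 was 0.79 by limma-voom, 0.26 without C3 and N3 and 0.0143 without K4 as well, and Cxcl5 was 0.59 and 0.10 under the first 2 of these. By limma-voom the saline differences were -0.17 (Ccl3), -0.22 (Ccl4), -0.32 (Cxcl2) and -0.65 (Cxcl5).

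With 1 library left out, the labelled knockout response ran from -0.0719 to 1.94 for Ccl3, -0.49 to 1.17 for Cxcl1, -0.65 to 1.32 for Cxcl2, -1.39 to 1.08 for Cxcl5 and -1.61 to 0.22 for Cxcl10. The saline difference ran from -0.67 to 1.34 for Ccl3, -1.74 to 0.58 for Ccl4, -0.0904 to 1.98 for Cxcl1, -0.88 to 1.09 for Cxcl2 and -1.05 to 0.86 for Cxcl5. The wild-type response of Cxcl9 ran from -1.08 to 2.60. The difference of responses ran from -1.55 to 0.83 for Ccl4 and from -0.31 to 0.0838 for Cx3cl1, whose difference between the labels with cerulein ran from -0.0717 to 0.31. The cause of these changes was not tested.

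No paired analysis was possible because the animal codes of the groups have none in common. With 3 animals per group and SEs near 0.9 for most members, log2 changes of 2.56 (Ccl7), 2.16 (Cxcl10) and 1.97 (Ccl3) in the wild type did not pass, and members with 1 to 3 counts in a library are imprecise. Counting intervals would cover counting error only.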

Other observations

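Cxcl13, which draws B cells through Cxcr5, was the most abundant of the other chemokine ligands by mean CPM. It stood at 3.25 (C2), 0.938 (C3) and 8.44 CPM (L4) in labelled knockout cerulein, 13.6 (O1), 3.44 (O3) and 108 CPM (N3) in wild-type cerulein, 46.5 (S1), 115 (K4) and 2.98 CPM (Q1) in labelled knockout saline, and 40.9 (W1), 19.5 (K5) and 11.3 CPM (R3) in wild-type saline. Its highest values were in K4 and N3, where Cxcl9, Cxcr5 and the lymphocyte markers were also high. W1 had a higher lymphocyte sum (309 CPM) than K4 (279 CPM), with less Cxcl13 and with Cxcl9 at 2.46 CPM. Cxcr5 stood at 2.58 CPM in K4 and 4.99 CPM in N3, and at 1.49 CPM or less in the other 10 libraries. No test was run on this pattern.

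The cytokine Il1b, a macrophage product that induces neutrophil chemokines, stood at 9.71, 3.66 and 8.85 CPM in labelled knockout cerulein, 10.9, 4.11 and 36.2 CPM in wild-type cerulein, 20.6, 15.7 and 0.298 CPM in labelled knockout saline, and 13.5, 2.47 and 4.06 CPM in wild-type saline. The highest library was N3 and the lowest Q1, as for Ccl2, Ccl3, Ccl4, Ccl7, Cxcl2 and Cxcl5, whereas the neutrophil chemokine Cxcl1 was highest in O1.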
